A study of Mus musculus with 6 samples.

Results

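Integrins are the receptors by which a cell holds on to its surroundings, and laminins, nidogens, perlecan and agrin are the proteins of the basement membrane that wraps cardiomyocytes, vessels and nerves. The genes described here are the protein-coding genes of the deposited table whose names are those of integrin α and β subunits and of laminin α, β and γ chains, together with Nid1, Nid2, Hspg2 (perlecan) and Agrn. They number 41 of the 54532 genes in the table and are defined by gene name. They comprise 8 leukocyte integrins (Itgal, Itgam, Itgax, Itgad, Itgb2, Itgae, Itgb7 and Itga4), 17 other integrins, 1 platelet integrin (Itga2b), 11 laminin chains and 4 further basement membrane proteins.

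Messenger RNA was sequenced from the left ventricle of mice 4 weeks after aortic banding (AB), a narrowing of the aorta that loads the ventricle with pressure. The TG group (3 hearts, genotype label HINT2CTG-Myh6Cre) overexpresses HINT2, a mitochondrial nucleotide hydrolase, from a CAG transgene that Cre under the cardiomyocyte promoter Myh6 switches on, and tamoxifen was given at 5 mg/kg/day for 7 days. The NTG group (3 hearts, genotype label C57BL/6J) is its non-transgenic control, and both groups were males, 8 to 10 weeks old at surgery, that underwent AB. The labels do not give Cre or tamoxifen for NTG, so the transgene, Cre and tamoxifen cannot be told apart, and sham-operated hearts were not analysed here.

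The libraries held 14863568 to 17581220 counts in NTG and 14944465 to 17235802 in TG, of which the 41 genes took 0.496% to 0.653% and 0.455% to 0.611%. Hint2 had 12, 545 and 559 counts in NTG 1, 2 and 3 and 793, 828 and 859 in TG 1, 2 and 3, so the library labelled NTG 1 stands apart from the other NTG libraries at the targeted gene. Over all genes tested, NTG 1 also lay nearer to TG than the other NTG libraries did, with a first principal component (52.3% of the variance) of -5.08, against 55.7 and 29.3 in NTG 2 and NTG 3 and -36.5 to -10.7 in TG. Mitochondrial genes took 19.2% of the counts in NTG 1, 13.4% and 14.3% in NTG 2 and NTG 3, and 16.0% to 21.5% in TG. The library labelled NTG 2 had the highest summed level of leukocyte markers, at 685 CPM (counts scaled to a common library size) against 222 to 359 CPM in the other 5 libraries. Class medians and the genes the results turn on are given with and without NTG 1 or NTG 2 where these libraries move them, and fold changes near 0 often moved by more than 1.5 times. Cardiomyocyte markers summed to 13820 to 28211 CPM and epithelial and mesothelial markers to at most 3.82 CPM. Atrial markers were uneven, with summed levels of 67.4, 2.18 and 2.20 CPM in NTG 1, 2 and 3 and 4.54, 29.2 and 167 CPM in TG 1, 2 and 3.

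An integrin is a pair of an α and a β subunit, and the pair decides what it binds. In heart muscle, the β1 subunit (Itgb1) pairs with laminin-binding and collagen-binding α subunits at the costamere, where the sarcomere is anchored to the matrix, whereas αv (Itgav) and β5 (Itgb5) form receptors for vitronectin and other ligands with an RGD motif. The β2 subunit (Itgb2) is made by leukocytes, where it pairs with αL, αM, αX or αD (Itgal, Itgam, Itgax, Itgad), and the β7 subunit (Itgb7) pairs with α4 or αE (Itga4, Itgae) on lymphocytes. Laminins are trimers of 1 α, 1 β and 1 γ chain, which nidogens and perlecan link to the collagen IV network.

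Promoters of 26 of the 41 genes were found in RefSeq (build GRCm38.p6). The 250 bases before the start are shown for 2 integrin subunits of leukocytes whose fitted fold changes had opposite signs, Itgam (chr7:128062390-128062639, + strand) and Itgb7 (chr15:102231936-102232185, - strand), and for the αv and β5 partners, whose fitted levels were both lower in TG, Itgav (chr2:83724147-83724396, + strand) and Itgb5 (chr16:33829415-33829664, + strand). Capitals mark GAGGAA (a core bound by PU.1 and other ETS factors), TGTGGT (the RUNX core), GGGCGG (the GC box) or TGANTCA (the AP-1 site) on either strand, and the matches shown do not overlap.
Itgam: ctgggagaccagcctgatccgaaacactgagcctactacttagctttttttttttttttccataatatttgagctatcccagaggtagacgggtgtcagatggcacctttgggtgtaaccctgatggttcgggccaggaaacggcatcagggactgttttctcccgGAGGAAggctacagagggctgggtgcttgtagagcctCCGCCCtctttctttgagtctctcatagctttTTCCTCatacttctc
Itgb7: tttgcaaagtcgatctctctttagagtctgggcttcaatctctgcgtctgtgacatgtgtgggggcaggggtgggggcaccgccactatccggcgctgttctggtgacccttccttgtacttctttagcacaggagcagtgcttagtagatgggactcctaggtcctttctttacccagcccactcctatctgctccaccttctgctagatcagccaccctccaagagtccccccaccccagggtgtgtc
Itgav: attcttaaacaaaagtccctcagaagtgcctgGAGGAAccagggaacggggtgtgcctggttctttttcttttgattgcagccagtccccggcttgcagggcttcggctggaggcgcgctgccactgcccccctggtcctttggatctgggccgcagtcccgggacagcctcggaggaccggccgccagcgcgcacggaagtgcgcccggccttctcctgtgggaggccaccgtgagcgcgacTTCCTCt
Itgb5: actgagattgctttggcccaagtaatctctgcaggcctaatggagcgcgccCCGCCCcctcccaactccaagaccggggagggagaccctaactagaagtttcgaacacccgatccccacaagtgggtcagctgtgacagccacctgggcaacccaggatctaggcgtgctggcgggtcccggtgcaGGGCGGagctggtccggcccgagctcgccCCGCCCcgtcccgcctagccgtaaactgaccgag
Itgam held GAGGAA at 84 and 15 bases before its start and GGGCGG at 47 bases, Itgav held GAGGAA at 218 and 7 bases, Itgb5 held GGGCGG at 199, 63 and 34 bases, and Itgb7 held none of these letters in its window. Over the 32841 promoters of the RefSeq table, 23.3% held GAGGAA, 14.0% TGTGGT, 32.7% GGGCGG and 6.75% TGANTCA, so single matches are common.

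Of the 41 genes, 39 had enough counts to be tested. Lama1, an early embryonic laminin chain, had 1 count in all, and Itgad had 1 to 9 counts per library. With edgeR's quasi-likelihood test and Benjamini-Hochberg adjustment over 14774 genes, 0 of the 39 passed both thresholds (adjusted p below 0.05, log2 fold change beyond 0.5 in size), as did 0% of all genes. At an unadjusted p under 0.05 in edgeR, 4 of the 39 lay higher in TG (8.83% of all genes tested) and 6 lay lower (9.76%). DESeq2, the tool the study used, called Itgae and Itgb7 higher (1.54% of all genes tested) and Itgb5 lower (2.4%). It called 6 members without NTG 1 (where it called 11.7% of all genes) and 0 without NTG 2, without NTG 3 or without TG 3. The 3 TG libraries lay above the 3 NTG libraries for 4 genes (11.2% of all genes) and below them for 4 (12.3%). For genes without overlap, the members' counts are near the share over all genes. The 39 log2 fold changes of TG over NTG had a median of -0.06, beside -0.01 over all genes tested.

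**Figure D1:**
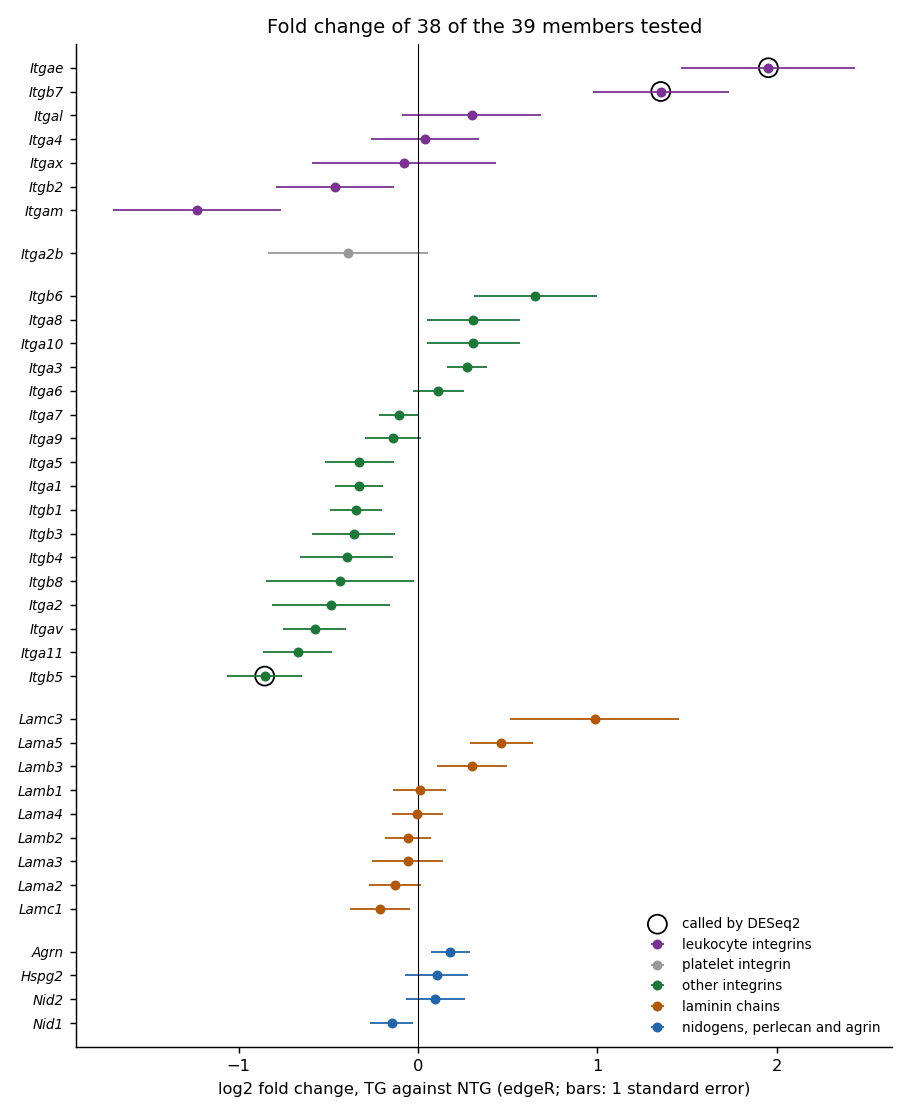
Log2 fold change of TG over NTG (x axis) for 38 of the 39 tested genes, by class, with bars of 1 standard error from edgeR and rings around the genes called by DESeq2. Itgae (1.95) and Itgb7 (1.35) lie farthest to the right, Itgam (-1.23) and Itgb5 (-0.85) farthest to the left, and the plotted laminin chains other than Lamc3 (0.98) lie between -0.21 and 0.46.

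Integrins outside leukocytes had mostly fitted levels that were lower in TG. Of the 17, 12 had a fitted fold change below 0 and 5 above (51.3% and 48.7% over all genes tested), with a median log2 fold change of -0.33. In edgeR, 5 had an unadjusted p under 0.05 and lay lower (Itgb5, Itgav, Itga11, Itga1 and Itgb1, beside 9.76% of all genes), and 1 lay higher (Itga3, beside 8.83%). Their summed level was 1928, 2412 and 2280 CPM in NTG 1, 2 and 3 and 1744, 1995 and 1589 CPM in TG 1, 2 and 3, so TG 2 overlapped with NTG 1. The median was -0.44 without NTG 1 and -0.15 without NTG 2.

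Itgb5 (chr16:33829665-33949338, GRCm38) encodes the β5 subunit, which pairs only with αv. It had 254, 407 and 339 CPM in NTG 1, 2 and 3 and 159, 229 and 164 CPM in TG 1, 2 and 3. Every TG library lay below every NTG library. The means were 333 ± 76.6 and 184 ± 39.01 CPM (SD, n = 3 each), a log2 fold change of -0.85 (SE 0.21), with an adjusted p = 0.196 in edgeR and 0.00702 in DESeq2. Without NTG 1, the log2 fold change was -1.02 with an adjusted p = 0.0264 in edgeR, in a fit that called 5.52% of all genes. Without NTG 2, it was -0.69 with an adjusted p = 0.428. The DESeq2 call was kept without NTG 1 or TG 2 and lost without any of the other 4 libraries.

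Itgav (chr2:83724397-83806916), the partner of β5, had 57.6, 88.05 and 67.7 CPM in NTG 1, 2 and 3 and 44.3, 56.2 and 42.8 CPM in TG 1, 2 and 3. The groups did not overlap, but TG 2 came close to NTG 1. Its log2 fold change was -0.58 (SE 0.17), with an adjusted p = 0.203 in edgeR and 0.0696 in DESeq2, and in edgeR without NTG 1, where 5.52% of all genes were called, it was -0.71 with an adjusted p = 0.0445. Without NTG 2 it was -0.39 with an adjusted p = 0.446 in edgeR. Among the other β partners of αv, Itgb3, the β3 subunit, which platelets and vessels also use, had 10.8, 20.8 and 14.1 CPM in NTG 1, 2 and 3 and 11.03, 12 and 12.7 CPM in TG 1, 2 and 3. Itgb6 and Itgb8, subunits known from the activation of latent TGF-β, had log2 fold changes of 0.65 (SE 0.34) and -0.43 (SE 0.41), with adjusted p = 0.339 and 0.589 in edgeR. Without NTG 1 they were at 1.08 and -0.78, and without NTG 2 at 0.38 and -0.13. Per kilobase of gene length, Itgb5 took 31.3% ± 2.44 (SD, n = 3) of the summed level of the 5 β subunits that can pair with αv in NTG and 24.3% ± 2.62 in TG. Itgb1 took 67.3% ± 2.46 and 73.9% ± 2.67, and Itgb6 took 0.316% ± 0.20 and 0.639% ± 0.069. These shares were chosen after the values had been seen, and for all 3 genes the groups did not overlap (exact permutation p = 0.1, two-sided, the smallest that 3 against 3 allows). As parts of the same sum, they are not separate results. A lower Itgb5 share raises that of Itgb1, whose level in CPM was lower in TG. For Itgb6, NTG 1 at 0.539% lay close to TG 3 at 0.571%, and the groups overlapped in CPM.

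Itga5, the fibronectin receptor α subunit, was the most abundant RGD-binding α subunit per length and had 167, 248 and 189 CPM in NTG 1, 2 and 3 and 147, 199 and 135 CPM in TG 1, 2 and 3. The groups overlapped, and the log2 fold change was -0.33 (SE 0.19, adjusted p = 0.382 in edgeR), or -0.15 without NTG 2. Itga8, which binds nephronectin, had a log2 fold change of 0.31 (SE 0.26), or 0.63 without NTG 1 and 0.10 without NTG 2. Itga9, which binds tenascin and osteopontin, had 172, 166 and 203 CPM in NTG 1, 2 and 3 and 141, 201 and 148 CPM in TG 1, 2 and 3, with overlapping groups.

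Itgb1, the β1 subunit, was the most abundant of the 41 genes per length, with means of 199 CPM per kilobase in NTG and 157 in TG. It had 705, 898 and 833 CPM in NTG 1, 2 and 3 and 649, 699 and 571 CPM in TG 1, 2 and 3, so that TG 2 lay just under NTG 1. The log2 fold change was -0.34 (SE 0.15), with an unadjusted p = 0.046 and an adjusted p = 0.26 in edgeR.

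Subunits that pair with β1 are described by their ligand. Of the 4 collagen-binding subunits, Itga1 and Itga11 had an unadjusted p under 0.05 in edgeR and lay lower in TG (9.76% of all genes). Itga11, a receptor of fibroblasts for fibrillar collagen, had 21.6, 21.3 and 20.9 CPM in NTG 1, 2 and 3 and 10.03, 17.5 and 12.5 CPM in TG 1, 2 and 3. The 3 NTG libraries lay close together and above all TG libraries, with a log2 fold change of -0.67 (SE 0.19) and an adjusted p = 0.196 in edgeR and 0.0552 in DESeq2. Itga1, the most abundant collagen-binding subunit per length, had 128, 173 and 168 CPM in NTG 1, 2 and 3 and 121, 134 and 119 CPM in TG 1, 2 and 3. TG 2 lay above NTG 1, and the log2 fold change was -0.33 (SE 0.13, adjusted p = 0.24 in edgeR). Itga2 and Itga10, the other collagen-binding subunits, had log2 fold changes of -0.49 (SE 0.33) and 0.31 (SE 0.26). Without NTG 2 they were at -0.16 and 0.16, and Itga10 was at 0.52 without NTG 1.

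Of the 3 laminin-binding subunits, 2 had fitted fold changes above 0 and 1 below. Itga6, the most abundant of them per length, had 241, 203 and 253 CPM in NTG 1, 2 and 3 and 285, 258 and 211 CPM in TG 1, 2 and 3, with overlapping groups. Itga7, the main laminin receptor subunit of muscle fibres, had a log2 fold change of -0.11 (SE 0.11). Itga3 had 13.04, 12.96 and 14.3 CPM in NTG 1, 2 and 3 and 16.8, 16.3 and 15.6 CPM in TG 1, 2 and 3. All TG libraries lay above all NTG libraries for Itga3, but the log2 fold change was small at 0.27 (SE 0.11, adjusted p = 0.253 in edgeR). Itgb4, the β partner of α6 in epithelia and Schwann cells, had 0.78 CPM per kilobase in NTG and 0.593 in TG, with a log2 fold change of -0.40 (SE 0.26), or -0.19 without TG 2 and -0.60 without TG 3. The Schwann markers, of which 3 of 3 tested had fitted fold changes above 0 (48.7% of all genes) and 1 was called higher by DESeq2 (1.54%), summed to 8.6 to 11.2 CPM in NTG and 12.5 to 14.1 CPM in TG, and their part in the Itgb4 level was not tested.

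**Figure D2:**
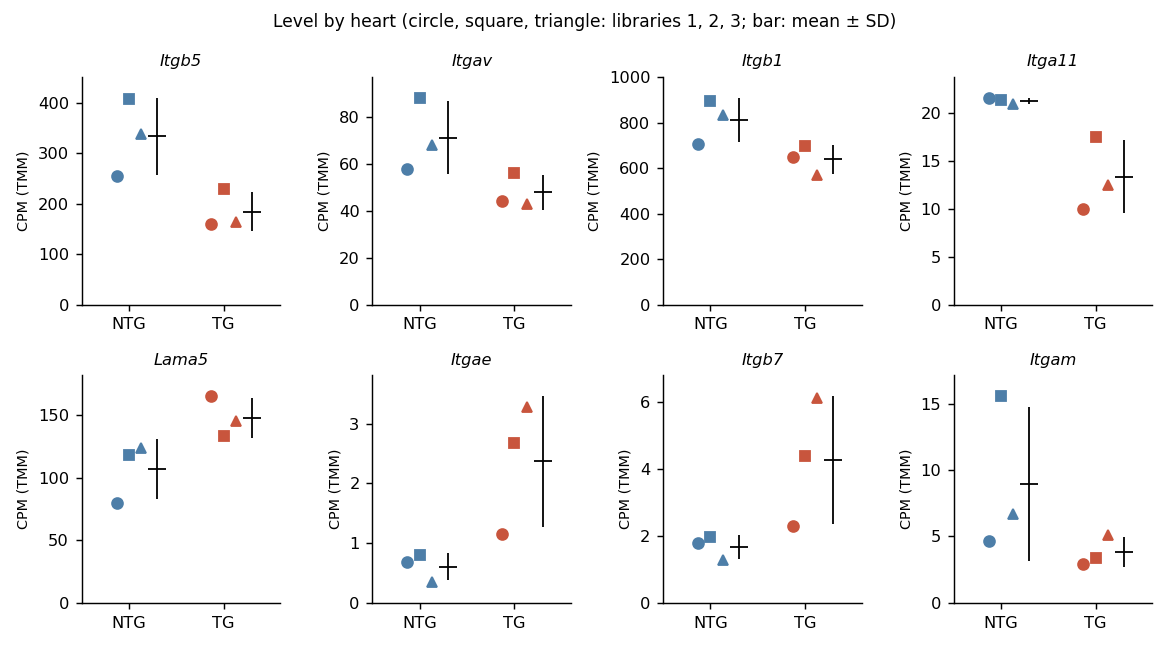
Level of 8 genes in CPM (y axis, from 0) in each of the 3 NTG and 3 TG hearts, with circles, squares and triangles for libraries 1, 2 and 3 and bars for the mean and SD. For Itgb5, Itgav, Itgb1 and Itga11 the TG points lie below the NTG points, for Lama5, Itgae and Itgb7 above them, and for Itgam the groups overlap.

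Fibroblast markers also differed between the libraries. All 6 of 6 fibroblast markers had fitted fold changes below 0 (51.3% of all genes), and DESeq2 called 3 of them lower (2.4% of all genes), while their summed level was 3098, 6775 and 4577 CPM in NTG 1, 2 and 3 and 1659, 2632 and 1563 CPM in TG 1, 2 and 3. Itgb5, Itgav and Itga11 are used by fibroblasts as well as by other cells of the heart. The 7 endothelial markers summed to 1650 to 1928 CPM in NTG and 1687 to 1855 CPM in TG. Pericyte and smooth muscle markers summed to 1240 to 1587 CPM in NTG and 1319 to 1607 CPM in TG. Of these 6, 3 had fitted fold changes above 0 and 3 below, and DESeq2 called 1 higher (1.54% of all genes). All 6 of 6 cardiomyocyte markers had fitted fold changes above 0 (48.7% of all genes), with sums of 23284, 13820 and 19117 CPM in NTG 1, 2 and 3 and 28211, 22465 and 27501 CPM in TG 1, 2 and 3. The part of these cell types in the integrin levels was not tested. In whole ventricle, fewer cells of a type and less RNA per cell cannot be told apart.

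Leukocyte integrins lay on both sides of 0. Of the 7 tested, 4 had fitted fold changes above 0 and 3 below, from -1.23 for Itgam to 1.95 for Itgae, and their median log2 fold change was 0.04, which is 0.37 above that of the other integrins. Without NTG 2 the median was 0.69. The distance to the other integrins ranged from 0.21 without NTG 3 to 0.84 without NTG 2. Within groups, the difference in mean log2 level between both classes had a pooled SD of 0.50 over libraries. That spread is larger than the distance of 0.37. Their summed level was 39.1, 89.6 and 42.4 CPM in NTG 1, 2 and 3 and 38.7, 47.1 and 64.0 CPM in TG 1, 2 and 3, so that NTG 2 was the highest and the groups overlapped.

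Itgae and Itgb7, the αE and β7 subunits of the E-cadherin receptor of intraepithelial and tissue-resident T cells, lay higher in TG. Itgae (chr11:73090583-73147446) had 0.683, 0.797 and 0.347 CPM in NTG 1, 2 and 3 and 1.15, 2.67 and 3.27 CPM in TG 1, 2 and 3, which rest on 10, 15 and 6 counts and 16, 47 and 53 counts. All TG libraries lay above all NTG libraries, with a log2 fold change of 1.95 (SE 0.48) and an adjusted p = 0.196 in edgeR and 0.0206 in DESeq2. Itgb7 (chr15:102215995-102231944) had 1.77, 1.96 and 1.27 CPM in NTG 1, 2 and 3 and 2.31, 4.38 and 6.11 CPM in TG 1, 2 and 3, from 26, 37 and 22 counts and 32, 77 and 99 counts. Again the groups did not overlap, TG 1 was the lowest of the TG libraries, and the log2 fold change was 1.35 (SE 0.38) with an adjusted p = 0.196 in edgeR and 0.0378 in DESeq2. When single libraries were left out, the log2 fold change in edgeR lay between 1.65 and 2.27 for Itgae and between 1.0 and 1.64 for Itgb7. The DESeq2 calls of both genes were kept without NTG 1 or TG 1 and lost without any of the other 4 libraries. Cdh1, which encodes E-cadherin itself, did not pass the filter on low counts. Itga4, which pairs with β7 or β1, had 6.21, 12.1 and 6.65 CPM in NTG 1, 2 and 3 and 6.20, 9.95 and 9.51 CPM in TG 1, 2 and 3. It overlapped between the groups, with a log2 fold change of 0.04 (SE 0.30, adjusted p = 0.96 in edgeR).

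Cd3e, a defining T cell marker, had 0.205, 0.159 and 0.231 CPM in NTG 1, 2 and 3 and 0.144, 0.796 and 1.42 CPM in TG 1, 2 and 3, too few counts to be tested. Cd3e was highest in TG 2 and TG 3, and its order among the other libraries rests on too few counts to be read. The part of T cells in the Itgae and Itgb7 levels was not tested.

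Itgam (chr7:128062640-128118491), the αM subunit of neutrophils, monocytes and macrophages, had a lower mean in TG. It had 4.64, 15.6 and 6.71 CPM in NTG 1, 2 and 3 and 2.96, 3.41 and 5.12 CPM in TG 1, 2 and 3. NTG 2 was far above the rest, TG 3 exceeded NTG 1, and the log2 fold change was -1.23 (SE 0.47, unadjusted p = 0.033 and adjusted p = 0.231 in edgeR). Without NTG 2 it was -0.57, with an adjusted p = 0.534 in edgeR. S100a8, a neutrophil gene, had 1.71, 77.0 and 8.68 CPM in NTG 1, 2 and 3 and 3.39, 1.82 and 4.38 CPM in TG 1, 2 and 3, while Ly6g was at 0 in NTG 1, TG 1 and TG 2 and at most 0.903 CPM in the others.

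Itgb2, Itgal and Itgax also had their highest NTG level in NTG 2. Itgb2 had 19.5, 44.4 and 21.7 CPM in NTG 1, 2 and 3 and 18.9, 17.8 and 25.6 CPM in TG 1, 2 and 3. Its log2 fold change was -0.46 (SE 0.33, adjusted p = 0.47 in edgeR) with NTG 2 and 0.01 without it. Itgal, the αL subunit of most leukocytes, had 3.75, 8.07 and 3.64 CPM in NTG 1, 2 and 3 and 4.18, 6.08 and 8.83 CPM in TG 1, 2 and 3, and Itgax, the αX subunit of dendritic cells and some macrophages, had 2.53, 6.58 and 1.79 CPM and 2.67, 2.67 and 5.06 CPM. Both overlapped between the groups, with log2 fold changes of 0.30 (SE 0.39) and -0.08 (SE 0.51), or 0.78 and 0.69 without NTG 2. Itga2b, the αIIb subunit of platelets, had 4.78, 3.82 and 2.31 CPM in NTG 1, 2 and 3 and 2.38, 1.42 and 4.51 CPM in TG 1, 2 and 3. The groups overlapped, and the log2 fold change was -0.39 (SE 0.45, adjusted p = 0.659 in edgeR), between -0.94 without TG 3 and -0.07 without TG 2, with platelet markers at 23.8 to 36.1 CPM in NTG and 30.2 to 32.2 CPM in TG.

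The leukocyte markers as a list were lower in fit in TG, with 9 of 10 tested markers below 0 (51.3% of all genes) and 1 called lower by DESeq2 (2.4%), and their median log2 fold change was -0.58, or -0.22 without NTG 2. Their summed level was 348, 685 and 359 CPM in NTG 1, 2 and 3 and 222, 314 and 321 CPM in TG 1, 2 and 3. To set the integrins beside a gene of all leukocytes, the level of each was divided by that of Ptprc (CD45) in the same library, a measure chosen after the values had been seen. Ptprc had 24.6, 59.3 and 22.9 CPM in NTG 1, 2 and 3 and 16.7, 24.1 and 31.7 CPM in TG 1, 2 and 3.

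Relative to Ptprc, 4 of the 8 leukocyte integrins were higher in every TG library than in any NTG library (5.35% of all genes tested), and 1 was lower (0.988%). The shares over all genes are no like baseline here, since most genes are not specific to leukocytes, and dividing by Ptprc adds its spread to them. All 8 ratios share the same divisor, so they are not separate results, and over all genes the ratio was more often higher than lower in TG. Itgae was at 2.77%, 1.34% and 1.52% of the Ptprc level in NTG 1, 2 and 3 and at 6.93%, 11.1% and 10.3% in TG 1, 2 and 3. Itgb7 was at 5.36% ± 1.95 (SD, n = 3) in NTG and 17.1% ± 2.87 in TG. Both were also higher before the division. Itgal was at 15.2%, 13.6% and 15.9% in NTG 1, 2 and 3 and at 25.1%, 25.2% and 27.9% in TG 1, 2 and 3, and Itga4 at 25.2%, 20.4% and 29.0% in NTG and 37.2%, 41.3% and 30.0% in TG. Itgal and Itga4 overlapped in CPM but not in this ratio, in which TG 3 lay just above NTG 3 for Itga4. Itgam was at 18.8%, 26.2% and 29.3% in NTG 1, 2 and 3 and at 17.7%, 14.2% and 16.2% in TG 1, 2 and 3, so that NTG 1 lay just above TG 1. Itgb2, Itgax and Itgad overlapped.

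**Figure D3:**
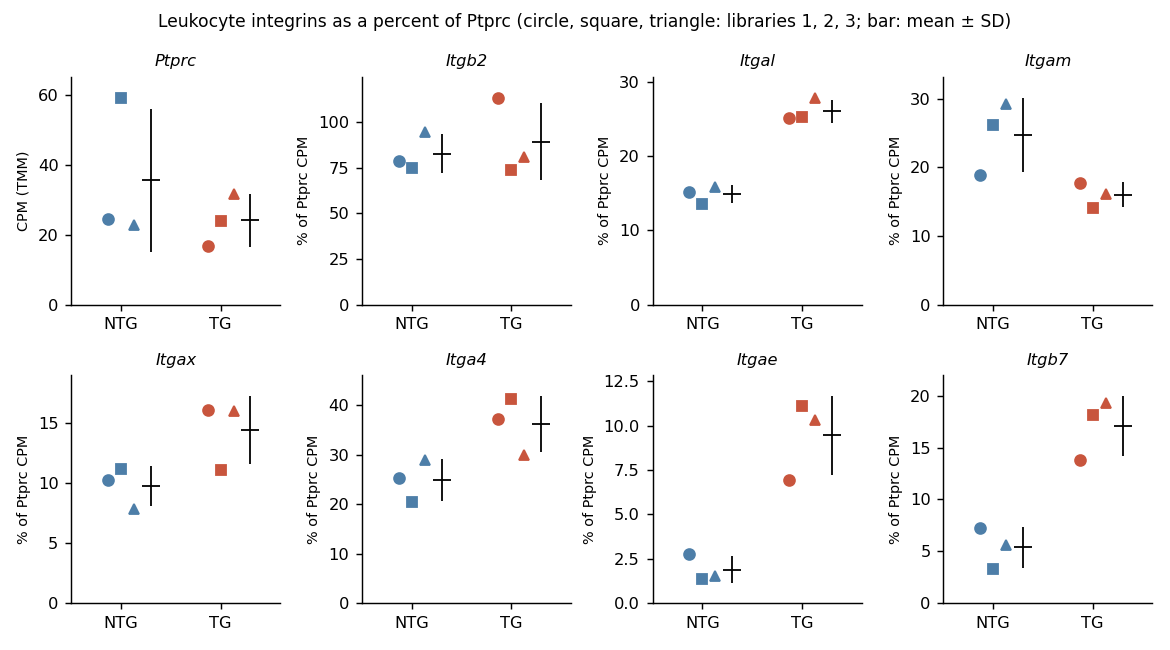
Level of Ptprc in CPM (first panel) and of the 7 tested leukocyte integrins as a percentage of the Ptprc level in the same library (y axes, from 0), with circles, squares and triangles for libraries 1, 2 and 3 and bars for the mean and SD. The TG points lie above the NTG points for Itgal, Itga4, Itgae and Itgb7 and below them for Itgam.

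Among the 4 α subunits that share β2, the shares of Itgam and Itgal, also chosen after the values had been seen, did not overlap between the groups. Itgam took 42.2% (95% Clopper-Pearson interval 34.5 to 50.3), 51.3% (47.1 to 55.5) and 54.0% (47.0 to 60.8) of the α counts in NTG 1, 2 and 3. In TG 1, 2 and 3 it took 29.3% (21.9 to 37.6), 27.6% (21.8 to 34.1) and 26.2% (21.4 to 31.4), and Itgal took 45.3% ± 3.94 (SD, n = 3) against 30.0% ± 3.82 in NTG. The exact permutation p was 0.1 for either share (two-sided, the smallest possible), and the intervals, of which those of NTG 1 and TG 1 overlap, cover counting error only. NTG 1 and NTG 3 lay above the TG libraries in the Itgam share as NTG 2 did. The shares of Itgam and Itgal are parts of the same sum and so are not separate results. Of the exon bases of Itgam, 68.7% are shared with Gm49368 on the same strand, which had at most 4 counts, so the level of Itgam against other genes is uncertain.

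Laminin chains lay near 0 as a class. Of the 10 tested, 5 had fitted fold changes above 0 and 5 below, with a median log2 fold change of 0.00. At an unadjusted p under 0.05 in edgeR, 1 of them, Lama5, lay higher (8.83% of all genes) and 0 lay lower (9.76%). Their summed level was 1465, 1731 and 1800 CPM in NTG 1, 2 and 3 and 1616, 1817 and 1390 CPM in TG 1, 2 and 3, with overlapping groups. Per length, the adult ventricle used mainly Lama4, Lama2 and Lama5 with Lamb2 or Lamb1 and Lamc1.

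Lama5 (chr2:180176373-180225859), the α5 chain of vascular and epithelial basement membranes, lay higher in TG. It had 79.5, 118 and 124 CPM in NTG 1, 2 and 3 and 165, 133 and 145 CPM in TG 1, 2 and 3. All TG libraries lay above all NTG libraries, and NTG 1 was the lowest. The log2 fold change was 0.46 (SE 0.17), with an unadjusted p = 0.029 and an adjusted p = 0.227 in edgeR, and it was 0.29 without NTG 1. Lama4, the α4 chain of vessels and heart muscle, was the most abundant α chain per length in the mean over libraries, though Lama2 led in NTG 3 and Lama5 in TG 3. Lama4 had 150.2, 178 and 173 CPM in NTG 1, 2 and 3 and 175, 190.2 and 135 CPM in TG 1, 2 and 3, with overlapping groups and a log2 fold change of -0.00 (SE 0.14). Lama2, the muscle α2 chain whose loss causes congenital muscular dystrophy, had a log2 fold change of -0.13 (SE 0.14). Lama3, an epithelial chain, lay at 0.925 CPM per kilobase in NTG and 0.89 in TG.

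Of the α chain level per kilobase, Lama5 took 21.6%, 26.8% and 26.6% in NTG 1, 2 and 3 and 35.1%, 27.3% and 36.5% in TG 1, 2 and 3. The groups did not overlap (exact permutation p = 0.1, two-sided, the smallest possible), but TG 2 lay close to NTG 2 and NTG 3. Lama2 took 35.3% ± 2.53 (SD, n = 3) in NTG and 30.1% ± 3.19 in TG, and Lama4 took 37.3% ± 1.93 and 34.7% ± 2.50, both with overlapping groups.

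**Figure D4:**
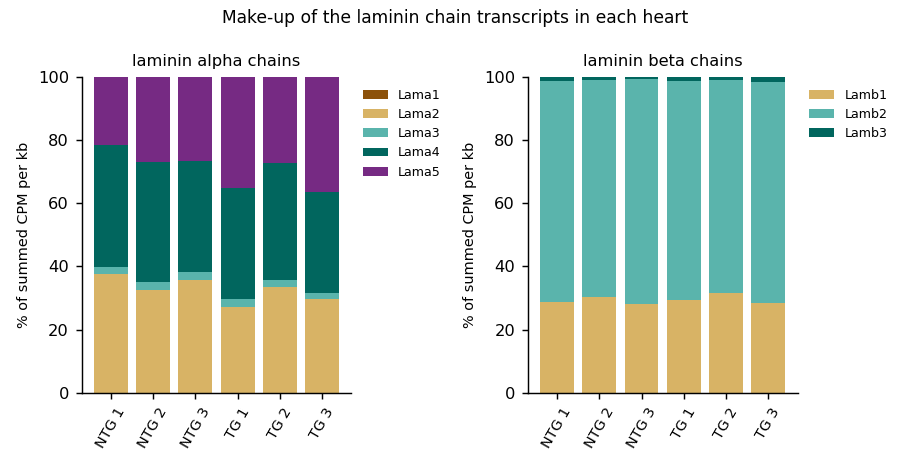
Share of each chain in the summed level per kilobase of the laminin α and β chains (stacked bars, percent, y axis from 0) in the 3 NTG and 3 TG hearts. Lama5 takes 21.6% to 26.8% of the α chains in NTG and 27.3% to 36.5% in TG, while Lamb2 makes up most of the β chains in all 6 hearts.

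Among β chains, Lamb2, the chain of mature muscle and synaptic basement membranes, had 334, 378 and 407 CPM in NTG 1, 2 and 3 and 363, 389.7 and 324 CPM in TG 1, 2 and 3. It took 70.1% ± 1.07 (SD, n = 3) of the β chain level per kilobase in NTG and 69.1% ± 1.49 in TG. Lamb1 had a log2 fold change of 0.01 (SE 0.15), and Lamb3, an epithelial chain, of 0.30 (SE 0.19), or 0.46 without NTG 1 and 0.21 without NTG 3. Among γ chains, Lamc1, which nearly all laminins contain, had 450.4, 551 and 561 CPM in NTG 1, 2 and 3 and 445, 537 and 369 CPM in TG 1, 2 and 3. It overlapped between the groups, with a log2 fold change of -0.21 (SE 0.17, adjusted p = 0.513 in edgeR), or -0.36 without TG 2 and -0.09 without TG 3. Lamc3, from 17 to 91 counts per library, had a log2 fold change of 0.98 (SE 0.47, adjusted p = 0.302 in edgeR), or 0.57 without TG 2.

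The 4 proteins that link or fill the basement membrane overlapped between the groups. Hspg2, which encodes perlecan, the large heparan sulfate proteoglycan, was the most abundant of them per length. It had 1053, 1315 and 1473 CPM in NTG 1, 2 and 3 and 1387, 1539 and 1202 CPM in TG 1, 2 and 3, with a log2 fold change of 0.10 (SE 0.17). NTG 1 was the lowest, and TG 3 lay under NTG 2 and NTG 3. Agrn, the proteoglycan agrin of the neuromuscular junction, had a log2 fold change of 0.18 (SE 0.11), Nid1 of -0.15 (SE 0.12) and Nid2 of 0.10 (SE 0.16), all with adjusted p of 0.396 to 0.775 in edgeR. Of the exon bases of Nid2, 8.45% are shared with Rtraf on the opposite strand, which had up to 1482 counts, and the strand setting of the counting is not given in the sources used here.

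**Figure D5:**
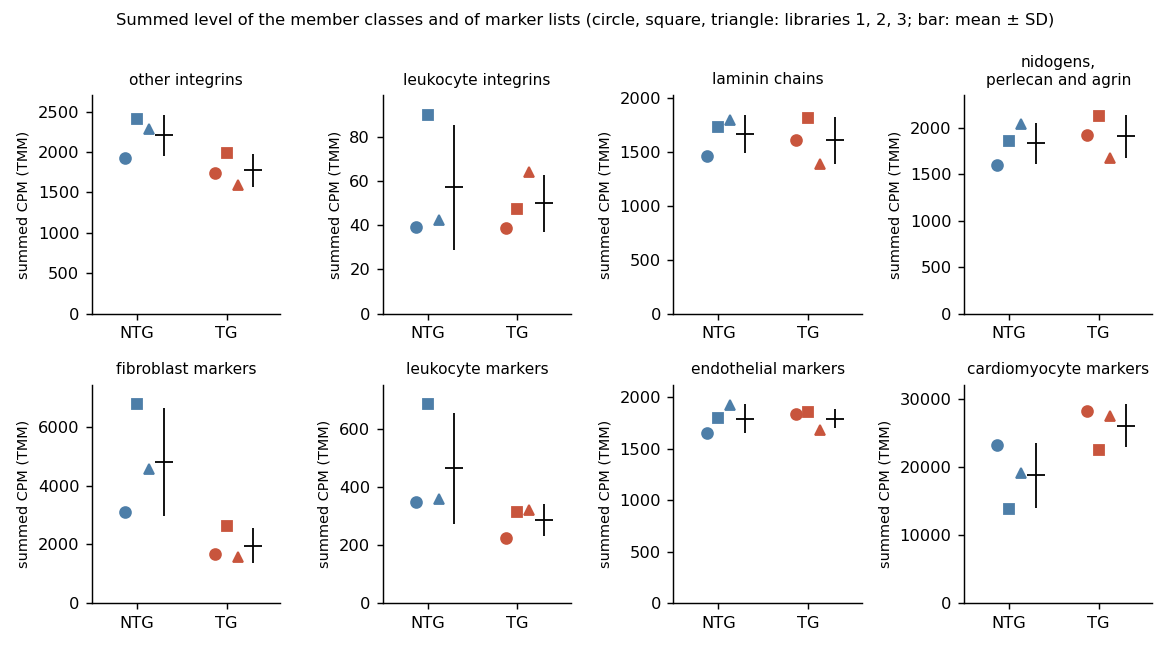
Summed level in CPM (y axes, from 0) of 4 gene classes (top) and 4 marker lists (bottom) in each heart, with circles, squares and triangles for libraries 1, 2 and 3 and bars for the mean and SD. Other integrins reach 1928 to 2412 CPM in NTG and 1589 to 1995 CPM in TG, and fibroblast markers 3098 to 6775 CPM and 1563 to 2632 CPM.

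Around these genes, 3 lists were read from the same fit. Integrin ligands outside the basement membrane lay farthest from 0. Of 20 ligands, 13 were tested, with a median log2 fold change of -0.65, which was -0.39 without NTG 2 and -1.23 without TG 2. In edgeR 6 lay lower (9.76% of all genes) and 2 higher (8.83%) at an unadjusted p under 0.05, while DESeq2 called 5 lower (2.4% of all genes) and 0 higher (1.54%). The 3 with the smallest p in edgeR were Vtn, which encodes vitronectin, the ligand of αvβ5, at 0.36, Spp1, which encodes osteopontin, at -2.41, and Fn1, which encodes fibronectin, at -1.83 (log2 fold change). The fitted fold change of Vtn was above 0 but under the 0.5 threshold. Those of Spp1 and Fn1 were below 0, as were those of Itgb5 and Itgav. No ligand had an adjusted p below 0.196 in edgeR. The ligand list shares Col1a1 and Postn with the fibroblast markers, and the fibrinogen genes Fga, Fgb and Fgg and Ibsp had 0 counts in every library.

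Integrin adaptors, which join the β tails to actin, had a median log2 fold change of -0.05 over 30 of 31 tested, between -0.08 and -0.01 with a library left out. In edgeR 5 lay lower (9.76% of all genes) and 1 higher (8.83%) at an unadjusted p under 0.05, and DESeq2 called 2 lower (2.4%) and 0 higher (1.54%). The 3 with the smallest p were Parva, which encodes α-parvin, at -0.44, Actn1, which encodes non-muscle α-actinin, at -0.81, and Tns3, which encodes tensin-3, at -0.69 (log2 fold change). The other 26 basement membrane genes, all tested, had a median log2 fold change of -0.20, or -0.10 without TG 3. At an unadjusted p under 0.05 in edgeR 6 lay lower and 4 higher, and DESeq2 called 2 lower and 1 higher, beside the same shares over all genes. Hmcn2 and Hmcn1, which encode hemicentins, were at 1.21 and 0.44, and Fbln1, which encodes fibulin-1, at -0.89 (log2 fold change).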

How the data were processed

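Poly-A RNA was sequenced from 3 TG and 3 NTG left ventricles. The authors deposited raw counts per gene, neither normalized nor pooled. They cleaned the reads with their own scripts, predicted transcripts with StringTie and counted reads with featureCounts, and the submitters' processing notes name HISAT2, DESeq2 and the build GRCh38. That is a human build name, while the table lists mouse genes, 98.3% of which have the same position in GENCODE release M21 (GRCm38), all 41 members included. The strand setting and the treatment of multi-mapping reads are not given in the sources used here, so overlapping genes are uncertain (14 members share exon bases with another gene). Gene length in the table, also deposited, served for levels per kilobase. 0 columns of values were left without a sample.

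Counts were fitted over all genes with edgeR 4.0.16 in R 4.3.3 (TMM, filterByExpr, robust quasi-likelihood test, Benjamini-Hochberg adjustment over 14774 genes). CPM are TMM-scaled counts, and SE is that of the log2 fold change. Calls needed an adjusted p below 0.05 together with a log2 fold change beyond 0.5 in size. DESeq2 1.42.0, limma 3.58.1 (voom), other scalings and filters, a replicate block and each library left out in turn were alternatives. Single values were compared by exact permutation. p-values measure the spread between libraries of single hearts. No pair of libraries agreed within counting error. The members and lists were chosen with earlier results of these data known. Values by library are given for each leukocyte integrin tested, each gene with an unadjusted p under 0.05 in edgeR or called by DESeq2, and the most abundant gene per length of each role, and the 3 smallest p of each list around the members are named. The markers named singly (Cd3e, S100a8, Ly6g, Ptprc) and the gene shares by β partner were chosen after their values were seen. The values of 1 laminin chain are not reported here.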

Additional observations from a re-analysis of the deposited data

How the results depend on the processing

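Members called numbered 0 in edgeR, and also with limma-voom, with robust = FALSE, with 3 other scalings (library size alone, RLE and upper quartile), and where every library had to hold 10 counts. They were 3 without a low-count filter (Itga11, Itgae and Itgb7, where 0.864% of all genes were called), 3 with DESeq2 and 3 with edgeR's likelihood-ratio test (Itgae, Itgb5 and Itgb7 in both, 3.69% of all genes in the latter). With each library left out in edgeR they were 0 to 2, with 2 (Itgav and Itgb5) without NTG 1, where 5.52% of all genes were called. DESeq2 called 0 to 6 members with a library left out, with 6 without NTG 1 (Itgae, Itgam, Itgav, Itgb5, Itgb6 and Itgb7, 11.7% of all genes), 2 without TG 1 (Itgae and Itgb7, 1.18%), 3 without TG 2 (Itga11, Itgav and Itgb5, 5.17%) and 0 without NTG 2 (0.82%), NTG 3 (1.12%) or TG 3 (0.638%). At an unadjusted p under 0.05 in edgeR, 2 members lay higher with library size scaling, 3 to 6 higher and 3 to 8 lower with a library left out, the 3 lower being those without NTG 2 or without TG 1. The median log2 fold change lay between -0.13 and 0.69 for leukocyte integrins and between -0.44 and -0.15 for other integrins with a library left out.

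Same-numbered libraries deviated with correlations of 0.081, 0.17 and -0.25, so the numbers do not pair them, and with a replicate block edgeR called 2 members (Itgav and Itgb5, 1.56% of all genes) and DESeq2 called 3 (Itga11, Itgav and Itgb5, 5.5% of all genes). Fold changes near 0 changed sign in some settings, all without a call. Lama4 was at 0.0021 with RLE scaling and 0.0021 with DESeq2, Itga4 at -0.050 with library size scaling, and Itgax at 0.057 with voom and 0.054 with the block. With a library left out, the log2 fold change lay between -0.11 and 0.13 for Lama4, -0.13 and 0.011 for Lamb2, -0.13 and 0.41 for Itga4, -0.010 and 0.78 for Itgal, -0.45 and 0.69 for Itgax, -0.68 and 0.010 for Itgb2, and -0.021 and 0.22 for Hspg2. The causes were not tested. Of the values recomputed for single members, 318 kept their direction and side of the threshold, 13 newly passed it and 20 changed sign. Itgad, Lama1 and Cd3e had too few counts to be tested, and Itgae rests on 6 to 53 counts per library.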
